A study of Mus musculus with 6 samples.

Results

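The proteasome genes of sorted mouse hepatocytes are described here, grouped by the particle of the proteasome each gene belongs to. Members were chosen by symbol, as every gene of the count table named Psma, Psmb, Psmc, Psmd, Psme, Psmf or Psmg followed by a number. This rule took 50 of 15565 genes, and all 50 passed the filter on low counts that left 13288 genes for testing. There were 8 alpha and 11 beta genes of the core particle, 7 Psmc genes, 14 Psmd genes, 5 activator genes and 5 genes for core assembly chaperones and an inhibitor. The symbol rule also took Psmc3ip, a meiotic recombination factor that is no proteasome subunit, and it is named apart from the ATPases where it matters.

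The study sorted hepatocytes, the parenchymal cells of the liver, into cells of high and of low Tert expression, called TERT(High) and TERT(Low). Tert encodes the catalytic subunit of telomerase. Each of 3 C57BL/6 mice aged 2 months gave 1 library of each population, so the 6 libraries form 2 groups of 3 matched by mouse. All 6 libraries, TERT(Low) included, come from mice of genotype Tert(CreERT2/+); R26(LSL-Tomato/+), in which 1 Tert allele carries the inducible recombinase CreERT2 and 1 R26 allele a Tomato reporter that Cre switches on. The TERT(Low) cells are therefore no wild-type control, and no reporter-free group was used here. The recombinase is under control of the Tert locus itself, and how the sort set the border between the populations is not given in the sources used here.

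The proteasome is the protease that degrades most short-lived and ubiquitin-tagged proteins of the cell. Its core particle is a barrel of stacked rings: outer rings of alpha subunits gate the entrance, and inner rings of beta subunits hold the proteolytic sites. A regulatory particle caps the barrel, with a base whose ATPases unfold the substrate and a lid that removes ubiquitin. Other activators can cap the core without ATP, and dedicated chaperones assemble each particle. When proteasome activity falls, the transcription factor NFE2L1 is known to raise subunit genes together, and interferon induces a variant core, the immunoproteasome, in many tissues including liver.

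Levels are given as counts per 1e6 counts after TMM scaling (CPM), always for mice 1, 2 and 3 in that order, and a log2 fold change is TERT(High) over TERT(Low). Library totals were 53585174 to 64065266 counts in TERT(High) and 55355819 to 76164917 in TERT(Low). Tert itself had 38, 33 and 30 counts in TERT(High) and 21, 21 and 12 in TERT(Low) libraries (log2 fold change 0.87, SE 0.44, adjusted p = 0.249), so its groups did not overlap but the difference did not pass the test. Hepatocyte markers, 12 of 12 in the table, summed to 125850.0 to 138115 CPM in TERT(High) and 117511 to 140684 CPM in TERT(Low) libraries. Of this sum Alb was 78801 to 90335 CPM in TERT(High) and 51578 to 75570 CPM in TERT(Low) libraries. The other 11 came to 47048.5 to 57260 CPM in TERT(High) and 56709 to 78413.5 CPM in TERT(Low) libraries. Of the 12, edgeR called Asgr1 lower (log2 fold change -0.71, adjusted p = 0.0485) and 0 higher. None of the markers of other cell types found in the table was at 0 in every library. Stellate markers (7 of 7 in the table) stood at 142 CPM in TERT(High) of mouse 1 against 4.23 to 9.77 CPM elsewhere, and erythroid markers (5 of 5) at 206 CPM there against 17.5 to 61.0 CPM. Of the stellate sum Col1a1 was 127 CPM there, and the other 6 stellate markers came to 15.3 CPM against 3.19 to 7.25 CPM elsewhere. The summed neutrophil markers (8 of 9) rested on Lcn2, which had 129 and 365 CPM in the libraries of mouse 2 and 14.5 to 32.5 CPM elsewhere. The other 7 came to 8.06, 5.73 and 2.54 CPM in TERT(High) and 0.272, 1.15 and 1.67 CPM in TERT(Low) libraries, higher in every TERT(High) library. Kupffer cell markers (11 of 11) were highest in both libraries of mouse 3, at 114 and 53.9 CPM. Endothelial markers (7 of 7) summed to 29.9 to 56.6 CPM in TERT(High) and 21.9 to 24.2 CPM in TERT(Low) libraries. Of these 7, edgeR called 2 higher, Kdr (adjusted p = 0.0277) and Lyve1 (adjusted p = 0.0452), and 0 lower. Cholangiocyte markers (3 of 5) summed to 2.05 to 11.7 CPM in TERT(High) and 2.13 to 3.26 CPM in TERT(Low) libraries. Of the highest cholangiocyte sum, in TERT(High) of mouse 1, Spp1 was 10.8 CPM. The part of these markers in the results was not tested.

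In TERT(High) cells 9 of the 14 constitutive genes of the core particle fell. So did 1 of the 17 regulatory particle subunit genes that the symbol rule took. Outside the rule, the lid subunit Sem1 fell too and the base subunit Adrm1 was not called. Of the 50 proteasome genes 14 fell in TERT(High) cells and 1 rose, at an adjusted p under 0.05 in edgeR's quasi-likelihood test. Across all genes tested 3.71% were called lower and 4.43% higher, against 28% and 2% of the proteasome genes. The 14 were Psma2, Psma5, Psma7, Psmb1, Psmb3, Psmb4, Psmb5, Psmb6, Psmb7, Psmd13, Psme2, Psme2b, Psmg1 and Psmg4, and the 1 that rose was Psme4. With offsets for transcript length and GC content, described with the transcript lengths, edgeR called none of the 14 (0% of all genes were called lower and 0% higher), and the median log2 fold change of the constitutive core genes moved from -0.72 to -0.25. Without them the decreases spanned 1.47-fold to 1.91-fold. In bulk RNA of sorted cells, fewer cells of a type and less RNA per cell cannot be told apart.

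By particle, 3 of 8 alpha genes and 6 of 11 beta genes fell, with median log2 fold changes of -0.51 and -0.74. None of the 7 Psmc genes (0 at an unadjusted p under 0.05, and none by DESeq2) and 1 of the 14 Psmd genes fell, with medians of -0.33 and -0.13. Of the activators 2 fell and 1 rose (median -0.28), and of the core chaperones and inhibitor 2 of 5 fell (median -0.63). The median over all genes tested was -0.01. With library totals in place of TMM the median of all genes moved to 0.14 and that of the Psmd genes turned positive (0.02), while the alpha and beta medians came to -0.35 and -0.58. Only Psmb3 of the 14 was still called then, where 0.143% of all genes were called lower and 4.73% higher. With upper-quartile scaling 19 members were called lower and 0 higher, where 5.36% of genes were lower and 4.08% higher.

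The tool, single libraries and the offsets for transcript length and GC content set how many members were called. With the mouse as a block edgeR again called 14 lower and 1 higher, 12 of the 14 the same, against 4.3% and 5.43% of all genes. DESeq2 called 23 of 48 members lower, all 14 among them, and Psme4 higher, where 11.6% and 13.6% of all genes were called lower and higher. The authors' deposited table lists 48 members, without Psma8 and Psmb11, and has 24 at an adjusted p under 0.05 as lower and 1 as higher, against 13.4% and 15.8% of its genes. When TERT(High) of mouse 1 was left out, edgeR called 20 members lower, all 14 among them, and Psme4 was not called. When any of the other 5 libraries was left out (TERT(High) of mouse 2 or 3, TERT(Low) of mouse 1, 2 or 3), edgeR called 0 members. All 14 still had negative log2 fold changes and unadjusted p under 0.05 each time, and DESeq2 called all 14 in each of its own 6 leave-outs. Over all genes tested, edgeR called 0 to 937 higher and 0 to 713 lower when a library or a whole mouse was left out. The share of all genes for each single leave-out is not given here, so the 20 members lack that measure.

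Many members did not overlap between the groups. TERT(High) libraries lay wholly below TERT(Low) libraries for 28 of 50 members (15.9% of all genes tested) and wholly above for 1 (17.5%). In the comparison within mice, 33 members were lower in TERT(High) in all 3 mice (26.6% of genes) and 4 were higher in all 3 (28.2%). The 4 were Psmc6, Psmd1, Psmd12 and Psme4, named after their values were seen. The 14 constitutive core genes, summed per library, came to 1126, 999.8 and 1011 CPM in TERT(High) cells and 1585, 1721 and 1729.5 CPM in TERT(Low) cells. The lowest TERT(Low) sum was well above the highest TERT(High) sum.

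**Figure D1:**
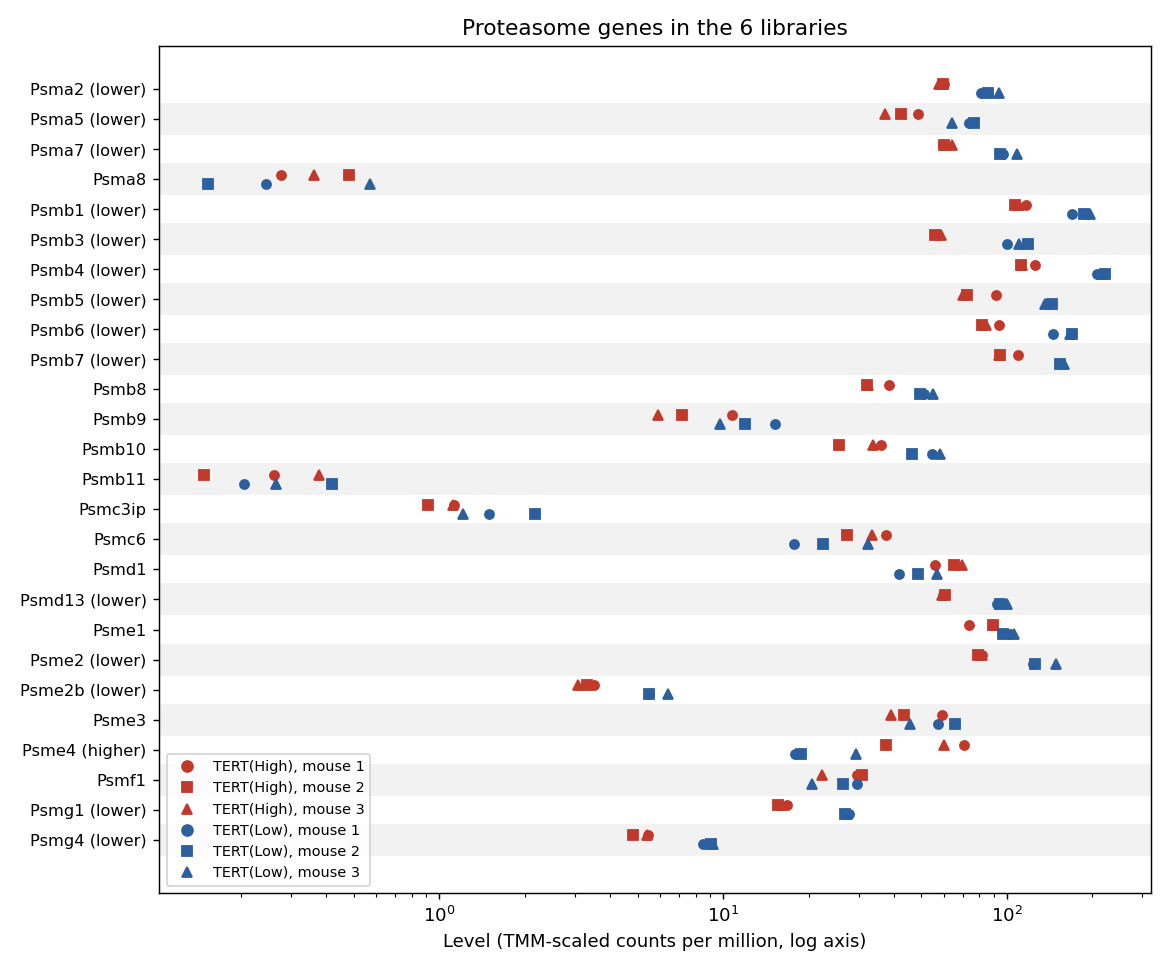
Levels of 26 proteasome genes in the 6 libraries, in TMM-scaled CPM on a log axis. Colour is the sorted population, marker shape the mouse, and the words lower and higher after a name give the edgeR call. Red and blue points are apart for every called gene and overlap for Psma8, Psmb9, Psmb11, Psmc6, Psmd1, Psme3 and Psmf1.

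Among the catalytic subunits, whose active sites cut the substrate, Psmb5, Psmb6 and Psmb7 all fell. Psmb5 (chr14:54614120-54617995, RefSeq annotation of GRCm38.p6, as are all coordinates here) supplies the chymotrypsin-like activity, the main target of clinical proteasome inhibitors. It stood at 91.4, 72.5 and 70.2 CPM in TERT(High) cells and 141, 144 and 136 in TERT(Low) cells and fell by 0.85 on the log2 scale (SE 0.15, adjusted p = 0.0321). Psmb6 (chr11:70525324-70527858), the caspase-like subunit, was measured at 93.8, 81.9 and 84.4 CPM in the TERT(High) libraries against 146, 169 and 167 in the TERT(Low) libraries. It fell by 0.89 on the log2 scale (SE 0.14, adjusted p = 0.0277). Psmb7 (chr2:38588046-38643952), the trypsin-like subunit, had 154, 154 and 158 CPM in TERT(Low) cells against 109, 94.5 and 93.4 in TERT(High) cells and fell by 0.65 on the log2 scale (SE 0.13, adjusted p = 0.0375). For all 3 genes the highest TERT(High) value, that of mouse 1, was below the lowest TERT(Low) value. Exons of Nek6 on the other strand overlap 11.8% of Psmb7 exon bases, and the strand setting of the authors' counting is not given in the sources used here.

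The structural beta subunits complete the inner rings without an active site of their own. Psmb3 (chr11:97703434-97713500) was the member with the lowest log2 fold change of all 50. Its levels were 57.3, 55.7 and 58.8 CPM in TERT(High) cells and 100.4, 118 and 110.1 in TERT(Low) cells, and it fell by 0.94 on the log2 scale (SE 0.13, adjusted p = 0.0277). The 3 TERT(High) values lay close together and far below the TERT(Low) values. Psmb4 (chr3:94884324-94886958) stood at 207, 222 and 216 CPM in TERT(Low) cells against 125, 112 and 113 in TERT(High) cells and fell by 0.88 on the log2 scale (SE 0.13, adjusted p = 0.0277). Psmb1 (chr17:15475721-15498276) stood at 116, 107 and 111 CPM in the TERT(High) libraries against 169, 187 and 196 in the TERT(Low) libraries and fell by 0.73 on the log2 scale (SE 0.13, adjusted p = 0.0321). Neither gene's groups overlapped. Psmb2 had a log2 fold change of -0.74 and did not pass the test (adjusted p = 0.0532), although its groups did not overlap; with the mouse as a block its adjusted p was 0.0494.

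Of the alpha subunits, which form the outer rings, 3 of 8 genes fell. Psma5 (chr3:108256926-108279952) had the lowest log2 fold change of the alpha genes. It was at 48.7, 42.2 and 37.1 CPM in TERT(High) cells and 73.5, 76.8 and 64.2 in TERT(Low) cells and fell by 0.74 on the log2 scale (SE 0.16, adjusted p = 0.0417). Psma7 (chr2:180036367-180042464), another subunit of these rings, was at 59.3, 60.1 and 64.1 CPM in the TERT(High) libraries against 96.5, 94.9 and 108 in the TERT(Low) libraries and fell by 0.71 on the log2 scale (SE 0.13, adjusted p = 0.0322). The groups were apart for both, and Psma5 varied more among the TERT(High) mice. Psma2 (chr13:14613242-14625673) was at 81.3, 85.8 and 93.9 CPM in TERT(Low) cells against 60.2, 59.7 and 57.8 in TERT(High) cells and fell by 0.56 on the log2 scale (SE 0.13, adjusted p = 0.0483), nearest to the threshold of the 14. With the mouse as a block its adjusted p was 0.0542.

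The other constitutive alpha genes did not pass. Psma6 had a log2 fold change of -0.57 (adjusted p = 0.0558) and Psma3 one of -0.46 (adjusted p = 0.125), both without overlap between the groups. Psma1 (-0.29, adjusted p = 0.272) and Psma4 (-0.18, adjusted p = 0.524) overlapped. Psma8 encodes an alpha subunit of the testis and had the highest log2 fold change of the class (0.21, adjusted p = 0.852). Its levels were low, at 0.277, 0.479 and 0.360 CPM in TERT(High) cells and 0.245, 0.153 and 0.569 in TERT(Low) cells, and the groups overlapped fully.

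The promoter windows of 4 members are shown because Psmb3, Psmb5 and Psmb6 moved together while Psme4, the only member that rose, moved the other way. Each runs from 250 bases before to 10 after a RefSeq transcription start of GRCm38.p6, 5′ to 3′ on the strand of the gene. The positions are chr11:97703184-97703443 on the plus strand for Psmb3, chr14:54617986-54618245 on the minus strand for Psmb5, chr11:70525107-70525366 on the plus strand for Psmb6 and chr11:30771525-30771784 on the plus strand for Psme4. Capitals mark matches, on either strand, to the letters TGACNNNGC (the core of the antioxidant response element, which NFE2L1 and NFE2L2 are known to bind), TGAGNNNGC, CCAAT, or GAAA followed by any 2 bases and GAAA (the core of the interferon-stimulated response element).
Psmb3: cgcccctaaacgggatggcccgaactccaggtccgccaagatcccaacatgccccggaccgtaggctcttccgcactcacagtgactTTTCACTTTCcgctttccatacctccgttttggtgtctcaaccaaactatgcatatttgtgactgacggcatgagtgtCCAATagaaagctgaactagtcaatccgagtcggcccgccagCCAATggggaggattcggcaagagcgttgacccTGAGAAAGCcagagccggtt
Psmb5: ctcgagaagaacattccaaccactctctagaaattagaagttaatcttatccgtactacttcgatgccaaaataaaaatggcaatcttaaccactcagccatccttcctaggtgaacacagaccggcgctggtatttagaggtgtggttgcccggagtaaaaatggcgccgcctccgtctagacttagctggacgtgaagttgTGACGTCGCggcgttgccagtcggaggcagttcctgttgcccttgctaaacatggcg
Psmb6: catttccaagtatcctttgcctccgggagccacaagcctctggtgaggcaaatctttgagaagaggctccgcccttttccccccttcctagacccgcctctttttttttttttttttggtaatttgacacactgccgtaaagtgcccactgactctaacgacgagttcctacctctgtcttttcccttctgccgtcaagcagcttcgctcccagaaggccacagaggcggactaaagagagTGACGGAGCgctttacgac
Psme4: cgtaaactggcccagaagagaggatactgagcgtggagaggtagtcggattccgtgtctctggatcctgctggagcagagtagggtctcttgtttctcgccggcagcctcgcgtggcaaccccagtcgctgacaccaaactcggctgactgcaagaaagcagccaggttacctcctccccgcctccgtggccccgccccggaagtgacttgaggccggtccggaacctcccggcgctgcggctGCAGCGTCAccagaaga

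Psmb5 holds TGACGTCGC with its first base at position -47 from the start, and Psmb6 holds TGACGGAGC at -9. Psme4 holds the same pattern on the other strand, read here as GCAGCGTCA, at -7. Psmb3 holds no TGACNNNGC but TGAGAAAGC at -10, CCAAT at -85 and -43, and TTTCACTTTC, the interferon letters on the other strand, at -163. So the pattern is found in called members of either direction. The 42 members with a window in the RefSeq table were each searched over 250 bases before to 50 after the start. TGACNNNGC was held by 6 (14.3%, against 14.0% of all genes of the RefSeq table and 16.8% of its genes tested here). The 6 were Psmb5, Psmb6, Psmc6, Psmd9, Psmd12 and Psme4. TGAGNNNGC was found in 13 members (31.0%, against 19.8% and 22.9% in the same order). CCAAT was found in 15 (35.7%, against 41.1% and 43.1%) and the interferon pattern in 5 (11.9%, against 3.99% and 3.82%). These 5 were Psmb3, Psmd4, Psmd9, Psme1 and Psmg4, and in Psme1 and Psmg4 the match lay after the start. The interferon-inducible Psmb8, Psmb9 and Psmb10 did not hold it. A match describes letters and not a bound site, the patterns TGACNNNGC and TGAGNNNGC exclude each other at a position on 1 strand, and no test was run on these shares.

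The interferon-inducible beta subunits replace the catalytic ones in the immunoproteasome, which favours peptides for antigen presentation. None of the 3 passed edgeR's test, an unadjusted p under 0.05 was reached by 2, and DESeq2 called 2, Psmb8 and Psmb10. All 3 were lower in TERT(High) in every mouse. Psmb8, the counterpart of Psmb5, stood at 38.4, 32.1 and 32.4 CPM in TERT(High) cells and 51.0, 49.4 and 54.8 in TERT(Low) cells (log2 fold change -0.59, SE 0.14, adjusted p = 0.0508). Psmb10, the counterpart of Psmb7, stood at 54.6, 46.5 and 58.0 CPM in TERT(Low) cells against 36.0, 25.6 and 33.6 in TERT(High) cells (log2 fold change -0.74, SE 0.18, adjusted p = 0.0543), and with the mouse as a block its adjusted p was 0.0411. Neither overlapped between groups. Psmb9, the counterpart of Psmb6, stood at 10.8, 7.13 and 5.90 CPM in the TERT(High) libraries against 15.2, 11.9 and 9.77 in the TERT(Low) libraries (log2 fold change -0.63, SE 0.28, adjusted p = 0.197). Its groups overlapped, with mouse 1 highest in both, and within each mouse TERT(High) was below TERT(Low). Psmb11, the counterpart known from thymic epithelium, was at 0.261, 0.149 and 0.377 CPM in TERT(High) cells and 0.204, 0.420 and 0.266 in TERT(Low) cells, low and mixed (log2 fold change -0.17, SE 0.59, adjusted p = 0.874).

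Leukocytes express the immunoproteasome strongly, so their markers are set beside it. The general leukocyte markers (4 of 4) summed to 2.30 to 8.53 CPM in TERT(High) and 1.60 to 3.40 CPM in TERT(Low) libraries, and the markers of T, NK and B cells (7 of 9) to 5.97 to 7.09 CPM in TERT(High) and 10.1 to 19.1 CPM in TERT(Low) libraries. The latter sum is mostly Zap70, which was at 5.48, 6.21 and 5.89 CPM in TERT(High) and 10.013, 18.3 and 12.0 CPM in TERT(Low) libraries. The other 6 genes came to 0.490, 0.512 and 1.20 CPM and 0.0681, 0.764 and 1.27 CPM, with overlap between the groups. The part of these genes in the result was not tested. Immunoproteasome genes were also set against their constitutive counterparts. Per kilobase of transcript, the ratio of Psmb8 to Psmb5 was 0.232, 0.245 and 0.255 in TERT(High) libraries and 0.200, 0.189 and 0.222 in TERT(Low) libraries. That of Psmb10 to Psmb7 was 0.292, 0.240 and 0.318 in TERT(High) libraries and 0.315, 0.266 and 0.324 in TERT(Low) libraries, and that of Psmb9 to Psmb6 0.0679, 0.0514 and 0.0413 in TERT(High) libraries and 0.0617, 0.0414 and 0.0345 in TERT(Low) libraries. The first ratio was higher in every TERT(High) library than in any TERT(Low) library, and the other ratios overlapped. A fixed length per gene does not remove the relation of fold change with transcript length given further on. Psmb8 was taken as 1628 nt and Psmb5 as 899 nt. With the length and GC offsets their log2 fold changes were -0.21 and -0.24, against -0.59 and -0.85 without them.

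**Figure D2:**
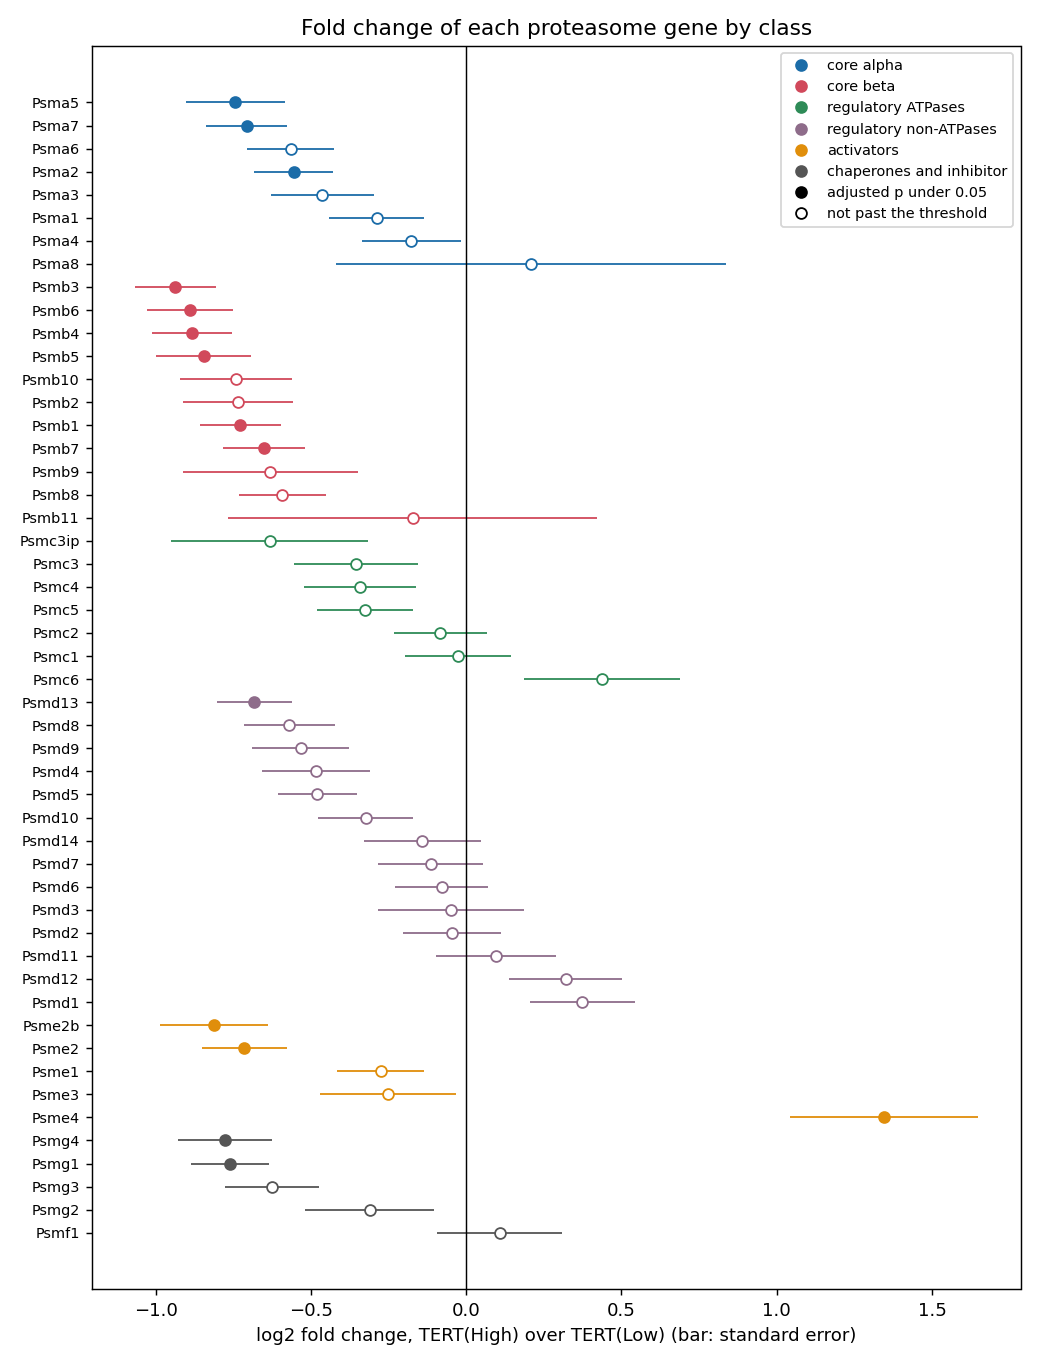
Log2 fold change, TERT(High) over TERT(Low), of the 50 proteasome genes by particle class, with bars of 1 standard error and filled points for genes at an adjusted p under 0.05. Most core genes lie between -0.94 and -0.18, the 6 ATPases lie between -0.35 and 0.44, and Psme4 stands alone at 1.35.

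The 6 ATPases form the ring of the base that unfolds substrates and opens the gate. None was called by edgeR or by DESeq2, and 0 were lower and 0 higher at an unadjusted p under 0.05 in edgeR. Their median log2 fold change was -0.20 over a range of -0.35 to 0.44. Psmc3 (-0.35), Psmc4 (-0.34) and Psmc5 (-0.33) were lower in every mouse, and of these only Psmc5 did not overlap between the groups. Psmc1 (-0.03) and Psmc2 (-0.08) lay near 0. Psmc6 had the highest value of the class, with 37.6, 27.2 and 33.4 CPM in TERT(High) cells and 17.8, 22.4 and 32.3 in TERT(Low) cells (log2 fold change 0.44, SE 0.25, adjusted p = 0.308). It was higher in TERT(High) within each mouse, by as little as 0.05 in mouse 3 and as much as 1.08 in mouse 1, and its groups overlapped. The lowest value under the Psmc symbols was that of Psmc3ip, at 1.13, 0.908 and 1.12 CPM in the TERT(High) libraries against 1.4986, 2.18 and 1.21 in the TERT(Low) libraries (log2 fold change -0.63, SE 0.32, adjusted p = 0.245).

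Of the base subunits without ATPase activity, Psmd1 and Psmd2 are the large scaffolds and Psmd4 is a ubiquitin receptor. None of these 3 was called by edgeR (1 lower and 0 higher at an unadjusted p under 0.05), and DESeq2 called Psmd4. Psmd1 had the highest log2 fold change of the Psmd genes and stood at 56.0, 64.9 and 69.3 CPM in TERT(High) cells and 41.5, 48.6 and 56.6 in TERT(Low) cells (log2 fold change 0.37, SE 0.17, adjusted p = 0.204). It was higher in TERT(High) in each mouse, with 1 TERT(High) value below the highest TERT(Low) value. Psmd2 was at -0.05 and Psmd4 at -0.48 (adjusted p = 0.125), the latter without overlap. The scaffolds and the receptor of the same base thus had values on either side of 0. With library totals in place of TMM the values of Psmd2 and of Psmc1, Psmc2, Psmd3, Psmd6, Psmd7 and Psmd14, as well as Psmb11, turned positive.

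In the lid, which clips ubiquitin chains from substrates, 1 of the 8 members under the symbol rule fell. Sem1, a lid subunit outside the rule, is given further on. Psmd13 (chr7:140882394-140898642), a scaffold subunit of the lid, was at 59.5, 60.4 and 59.1 CPM in TERT(High) cells and 92.3, 94.6 and 100.2 in TERT(Low) cells and fell by 0.68 on the log2 scale (SE 0.12, adjusted p = 0.0312). Its groups were far apart and its TERT(High) values nearly equal among the mice. Exons of Sirt3 on the other strand overlap 10.1% of Psmd13 exon bases. Psmd8 did not pass (-0.57, adjusted p = 0.0598) but did not overlap between groups. The other 6 overlapped: Psmd14, the deubiquitinase, was at -0.14, Psmd7, its partner, at -0.11, Psmd6 at -0.08, Psmd3 at -0.05, Psmd11 at 0.10 and Psmd12 at 0.32. Over the lid the median was -0.10, and 0.06 with library totals in place of TMM.

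Psmd5, Psmd9 and Psmd10 carry the Psmd name but encode chaperones that assemble the base and leave the finished particle. Their log2 fold changes were -0.48 (adjusted p = 0.0638), -0.53 (adjusted p = 0.0798) and -0.32 (adjusted p = 0.223). None passed in edgeR, 2 reached an unadjusted p under 0.05, and DESeq2 called Psmd5 and Psmd9. The groups did not overlap for any of the 3. With these 3 and Psmc3ip set apart, 1 of the 17 regulatory particle subunits under the symbol rule was called lower (median -0.08, or 0.06 with library totals). Sem1 and Adrm1 are not among the 17. Of the 14 constitutive core genes 9 were called lower (median -0.72, or -0.56). The difference between these 2 sets was not tested.

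The chaperones of the core particle, Psmg1 to Psmg4, bring the alpha ring together. Psmg1 (chr16:95979933-95990960) was at 16.8, 15.6 and 15.9 CPM in TERT(High) cells and 27.7, 26.9 and 27.4 in TERT(Low) cells and fell by 0.76 on the log2 scale (SE 0.13, adjusted p = 0.0277). Psmg4 (chr13:34162964-34178172) was at 8.49, 9.07 and 9.24 CPM in TERT(Low) cells against 5.44, 4.82 and 5.37 in TERT(High) cells and fell by 0.78 on the log2 scale (SE 0.15, adjusted p = 0.0358). Both sets of libraries were tight and apart. Psmg3, the partner of Psmg4, had a log2 fold change of -0.63 (adjusted p = 0.0535) without overlap, and Psmg2, the partner of Psmg1, one of -0.31 (adjusted p = 0.381) with overlap. Psmf1, an inhibitor of the core in the test tube, was at 29.7, 30.8 and 22.3 CPM in the TERT(High) libraries against 29.7, 26.5 and 20.6 in the TERT(Low) libraries (log2 fold change 0.11, SE 0.20, adjusted p = 0.758), and its groups overlapped.

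The activators were the class in which members moved in opposite directions. Psme4 (chr11:30771775-30881150) encodes the large nuclear activator that caps the core without ATP and is known from spermatogenesis and DNA repair. It stood at 70.7, 37.5 and 59.9 CPM in TERT(High) cells and 17.9, 18.8 and 29.4 in TERT(Low) cells and was the only member to rise (log2 fold change 1.35, SE 0.30, adjusted p = 0.0467). Every TERT(High) library was above every TERT(Low) library. The log2 difference was 1.98 in mouse 1, 0.997 in mouse 2 and 1.02 in mouse 3. Leaving out any 1 of the 6 libraries ended the call in edgeR, with log2 fold changes of 1.01 to 1.61 and adjusted p of 0.0777 to 0.309 over these and the leave-outs of a whole mouse. DESeq2 called it in each leave-out of 1 library. The call also ended with DESeq2-style size factors, upper-quartile scaling or library totals in place of TMM.

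Psme2 and Psme1 encode the paired subunits of the interferon-inducible activator ring. Psme2 (chr14:55587440-55591101) was at 81.8, 79.1 and 81.9 CPM in TERT(High) cells and 124, 126 and 149 in TERT(Low) cells and fell by 0.71 on the log2 scale (SE 0.14, adjusted p = 0.0346). Psme1 was at 102, 97.2 and 106 CPM in TERT(Low) cells against 73.8, 89.3 and 89.1 in TERT(High) cells (log2 fold change -0.28, SE 0.14, adjusted p = 0.248) and did not pass, although its groups did not overlap. With the offsets for transcript length and GC content its log2 fold change turned to 0.26. The ratio of Psme1 to Psme2 per kilobase of transcript was 0.780, 0.977 and 0.941 in TERT(High) libraries and 0.716, 0.670 and 0.613 in TERT(Low) libraries, with no overlap between the groups. Psme2b (chr11:48945345-48946410), a single-exon copy of Psme2, was at 3.51, 3.32 and 3.07 CPM in the TERT(High) libraries against 5.46, 5.50 and 6.41 in the TERT(Low) libraries and fell by 0.81 on the log2 scale (SE 0.17, adjusted p = 0.0417). Its adjusted p with the mouse as a block was 0.0553. Reads of a near-identical copy can be assigned to either gene, so Psme2b is uncertain as a separate result. Psme3, the nuclear activator of the same family, was at 59.2, 43.3 and 39.0 CPM in TERT(High) cells and 57.2, 65.8 and 45.5 in TERT(Low) cells (log2 fold change -0.25, SE 0.22, adjusted p = 0.508), and its groups overlapped.

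**Figure D3:**
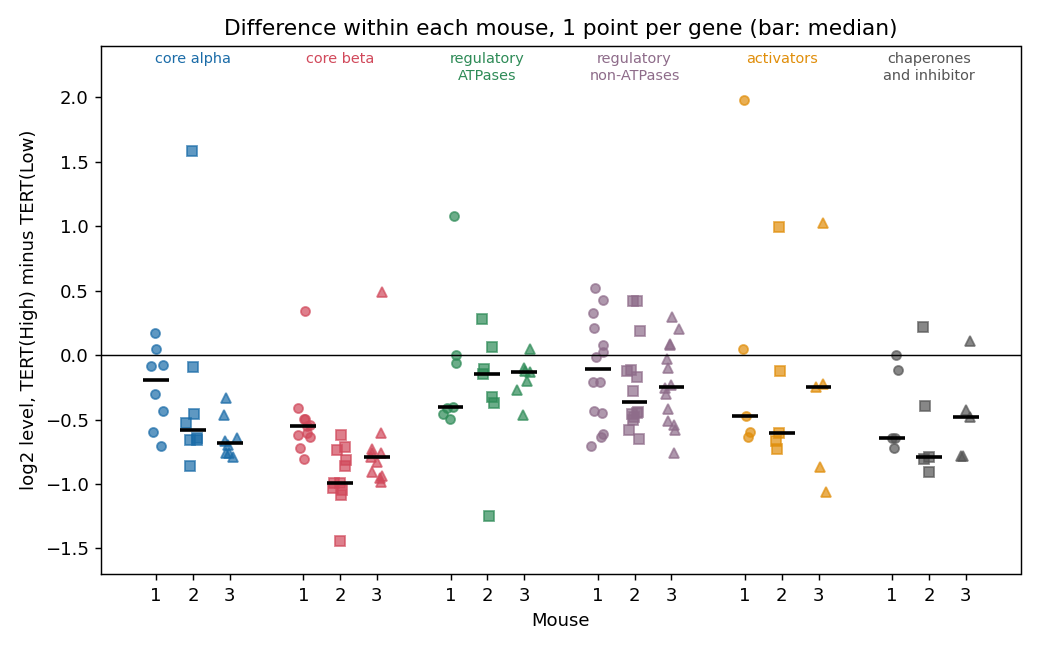
Log2 difference between TERT(High) and TERT(Low) within each mouse, for the proteasome genes by class, with the class median per mouse. The beta medians were -0.55, -0.99 and -0.79 in mice 1, 2 and 3, below those of the Psmd genes in each mouse.

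Within mice the size of the core difference varied. The alpha median was -0.19 in mouse 1, -0.58 in mouse 2 and -0.68 in mouse 3. Beta genes were lower in TERT(High) for 10, 11 and 10 of 11 members in these mice, with the medians given beside the plot of differences within mice. For the Psmd genes the medians were -0.11, -0.36 and -0.24. Mouse 1 thus had the smallest differences in the core, and its TERT(High) library is the one with high stellate and erythroid markers, whose part was not tested.

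Levels of different genes were compared per kilobase of transcript. The median of the 14 constitutive core genes was 65.6 to 68.5 CPM per kilobase in TERT(High) and 98.0 to 112 in TERT(Low) libraries. The 6 ATPases had medians of 30.2 to 39.6 and 36.0 to 43.7 CPM per kilobase, and the 8 lid genes 23.5 to 29.4 and 24.3 to 33.7. The core median was thus above those of the base and lid in every library. Within the core, where each subunit is present in equal number in the protein, the highest RNA level was 5.01 to 5.69 times the lowest in TERT(High) and 6.49 to 7.20 times in TERT(Low). Psmb6 was the highest and Psma2 the lowest in all 6 libraries. This order depends on the transcript chosen: per kilobase of coding sequence Psma1 was the lowest and Psmb1 or Psmb4 the highest in every library. The spread was then 2.73 to 3.21 times in TERT(High) and 4.02 to 4.58 times in TERT(Low). Psmc6 was the lowest ATPase per kilobase of transcript in every library, and Psmd8 the highest lid gene.

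The 19 core genes had a median transcript length of 1201 nt against 2938 nt for all genes tested, and the log2 fold change in these libraries went with transcript length. Across the 50 members Spearman's rho between the 2 was 0.69 (0.67 without Psme4), and across 12548 tested genes with a length it was 0.48. With coding length in place of transcript length rho was 0.63 for the members and 0.52 for all genes. These points share the same 6 libraries and are no independent replicates. The 14 members that fell had transcripts of 555 to 2911 nt (median 1003 nt), the 35 not called a median of 1581 nt, and Psme4, the longest, 6491 nt. With the fitted trends on transcript length and GC content entered as offsets, edgeR called 0 members and 0 genes of the table. At an unadjusted p under 0.05, that fit had 6 members lower (4.82% of genes) and 1 higher (11.7%), against 24 (12.4%) and 1 (16.3%) before. With the block added to the offsets 2 members were lower and 0 higher, where 0.745% of genes were lower and 3.33% higher. DESeq2 with the same offsets called Psma2, Psma3, Psmb1 and Psmd5 lower, 4 of 47 members (8.51%), and 0 higher, where 2.96% of genes were lower and 6.9% higher.

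The offsets were fitted on transcript length and GC content, not on coding length, and the relation with coding length was reduced less. After them rho with transcript length was 0.14 for the members and 0.07 for all genes, and with coding length 0.50 and 0.32. All 14 kept negative values under the offsets, from -0.83 to -0.09. Of the 35 members not called, 13 turned from negative to positive, so that 30 of 50 were negative in place of 43. The 13 were Psma4, Psmc1, Psmc2, Psmc4, Psmc5, Psmd2, Psmd3, Psmd4, Psmd6, Psmd7, Psmd14, Psme1 and Psmg2. Of the 17 regulatory particle subunits 3 were negative in place of 13. The class medians moved to -0.16 for alpha, -0.26 for beta, 0.13 for Psmc and 0.02 for Psmd genes, against 0.05 for all genes. Psme4 came to 0.78 (adjusted p = 0.218). For Psma2 the value became -0.83, more negative than without offsets. Its transcript is taken as 2911 nt with 702 nt of coding sequence, so the length used bears on its correction. All 11 beta genes stayed below 0, from -0.61 to -0.17.

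**Figure D4:**
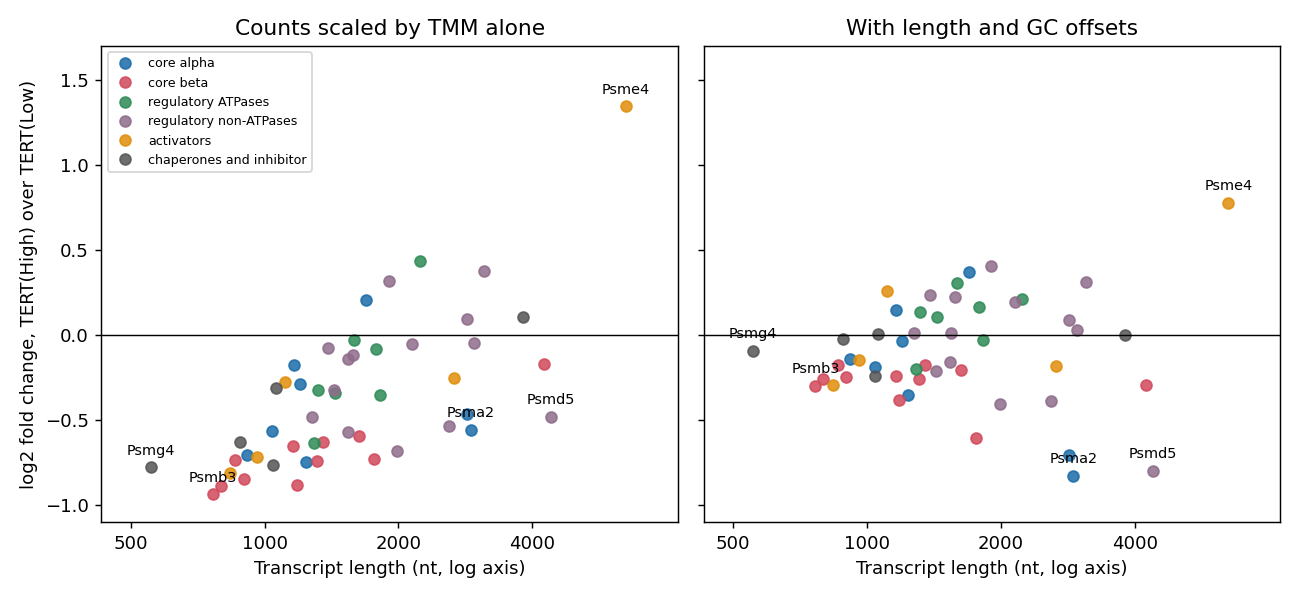
Log2 fold change, TERT(High) over TERT(Low), against transcript length on a log axis for the 50 members, with TMM scaling alone (left) and with offsets for length and GC content (right). The rise from short to long transcripts on the left (rho 0.69) is smaller on the right (rho 0.14), while rho with coding length, not plotted, went from 0.63 to 0.50.

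Genes that work with the proteasome were read from 5 lists chosen with earlier results of these data known. Of 13 tested partners outside the symbol rule, 2 fell and 1 rose (median 0.09), where 3.71% of all genes were called lower and 4.43% higher. Pomp, the chaperone that matures the core, was at 82.4, 75.1 and 81.3 CPM in TERT(High) cells and 112, 129 and 135 in TERT(Low) cells and fell by 0.66 on the log2 scale (SE 0.14, adjusted p = 0.0395). Sem1, a small lid subunit, was at 45.8, 35.1 and 37.0 CPM in the TERT(High) libraries against 63.1, 61.4 and 64.8 in the TERT(Low) libraries and fell by 0.68 on the log2 scale (SE 0.15, adjusted p = 0.0450). Both lay apart between groups, like most core genes. AI314180, the mouse symbol for the proteasome scaffold Ecpas, was at 13.7, 13.003 and 14.2 CPM in TERT(Low) cells against 28.8, 31.9 and 36.1 in TERT(High) cells and rose (log2 fold change 1.24, SE 0.15, adjusted p = 0.0271). Adrm1, the ubiquitin receptor at the tip of the base, was at -0.19 (adjusted p = 0.539).

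Of 12 genes for the transcription of subunit genes, none was called by edgeR, with a median of 0.51. In edgeR 0 were lower and 5 higher at an unadjusted p under 0.05, where 12.4% and 16.3% of all genes were, and DESeq2 called 2 higher, where it called 13.6% of all genes higher. Nfe2l1 had a log2 fold change of 0.53 (adjusted p = 0.140) and Nfe2l2, the oxidative stress factor, of 0.55 (adjusted p = 0.0772). Ddi2, the protease that activates NFE2L1, was at 1.04 (adjusted p = 0.0608, and 0.0420 with the mouse as a block). Stat3 was at 0.65 (adjusted p = 0.334). Over the list of 12, 8 values were positive and 4 negative. The 4 were Mafg (-0.65), Maff (-0.42), Nfyc (-0.17) and Nfyb (-0.02).

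Of 4 genes for ubiquitin and its activation 1 was called lower and 0 higher, where 3.71% and 4.43% of all genes were. At an unadjusted p under 0.05 in edgeR 1 was lower and 1 higher, where 12.4% and 16.3% of all genes were. DESeq2 also called 1 lower and 1 higher. The higher gene was Uba6, at 1.32 with overlap between the groups (adjusted p = 0.110 in edgeR and 0.0429 in DESeq2). Rps27a, which encodes ubiquitin fused to a ribosomal protein, fell by 0.80 on the log2 scale (SE 0.15, adjusted p = 0.0331), and the median of the list was -0.05. Of 11 shuttle and segregase genes none was called by edgeR (median 0.10), with 1 lower and 3 higher at an unadjusted p under 0.05 and 2 called higher by DESeq2, against the same shares of all genes. Vcp, the ATPase that extracts substrates, was at 0.44 (adjusted p = 0.0745).

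Of 14 genes for antigen presentation and interferon response edgeR called 1 higher and 0 lower (median 0.03), where 4.43% and 3.71% of all genes were. The 1 was Erap1, a peptide-trimming protease (log2 fold change 0.71, SE 0.16, adjusted p = 0.0468). At an unadjusted p under 0.05 in edgeR 1 was lower and 4 higher, where 12.4% and 16.3% of all genes were. DESeq2 called 1 lower and 1 higher, where it called 11.6% and 13.6% of all genes. Tap1, which shares a divergent promoter region with Psmb9, was at -0.13 (adjusted p = 0.850), B2m at -0.05 (adjusted p = 0.843) and H2-K1 at -0.42 (adjusted p = 0.161). The interferon genes as a list thus had values on both sides of 0, with 6 negative and 8 positive, beside the 3 immunoproteasome subunits, all negative. With the length and GC offsets edgeR called no gene on the 5 lists, and with the mouse as a block as well it called 1, Ddi2, higher (log2 fold change 1.05, adjusted p = 0.0402).

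**Figure D5:**
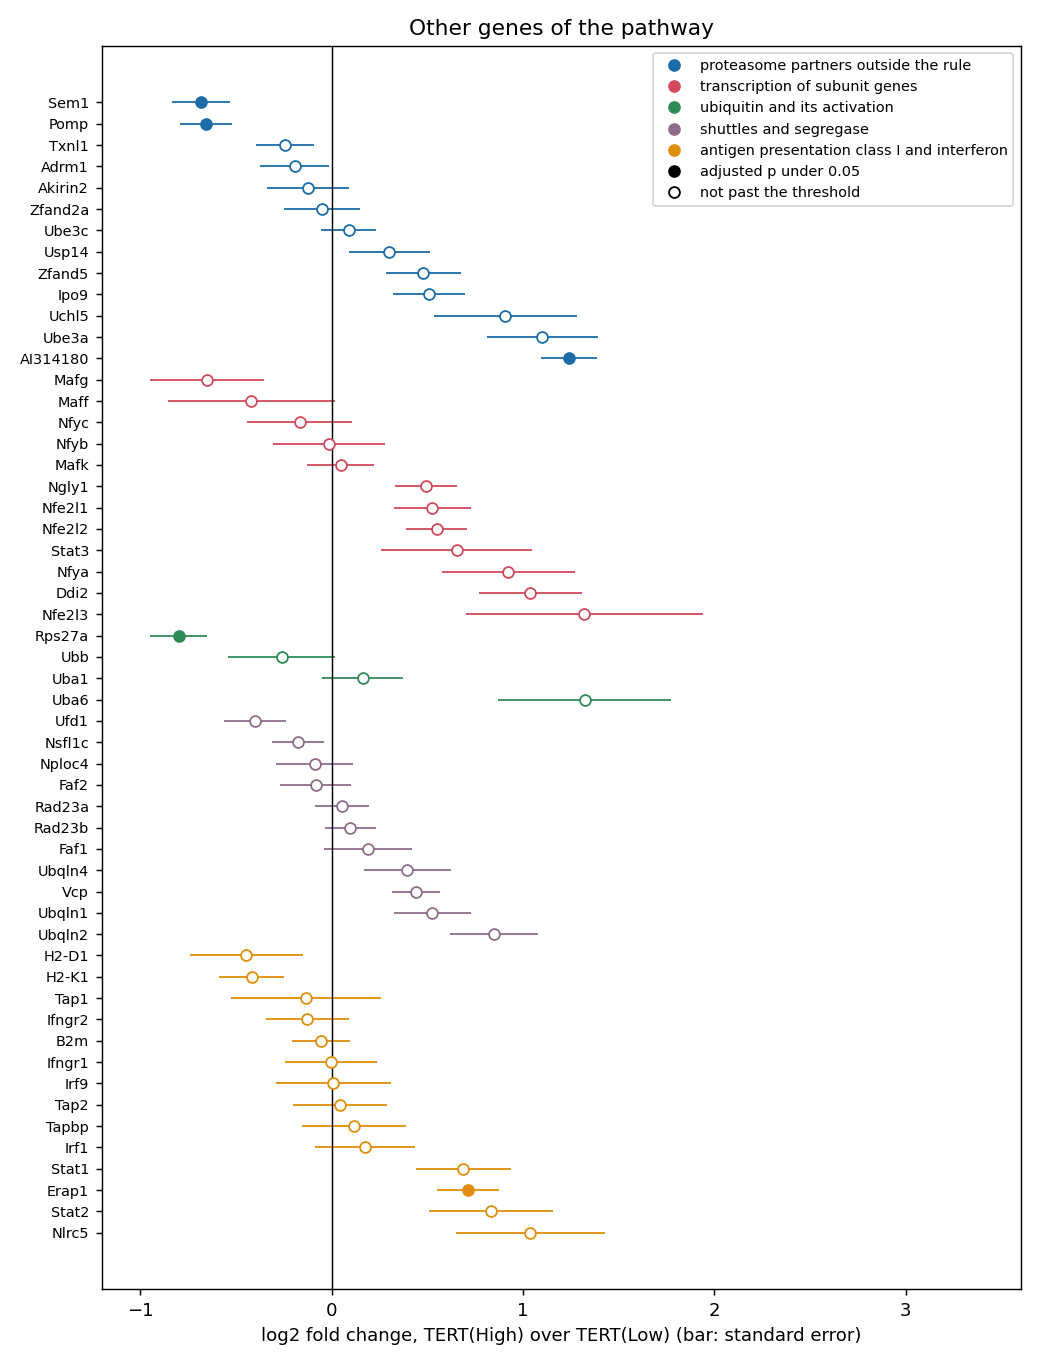
Log2 fold change, TERT(High) over TERT(Low), of the genes on the 5 lists around the proteasome, with filled points for genes at an adjusted p under 0.05. Pomp, Sem1 and Rps27a lie below 0 and AI314180 and Erap1 above, and the transcription list has 8 of 12 values above 0.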

How the data were processed

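Polyadenylated RNA of sorted TERT(High) and TERT(Low) hepatocytes from 3 mice was measured in 6 libraries made with a stranded mRNA kit, per the labels. The submitters' processing notes name the genome mm10, TopHat2 2.0.13, Trim Galore 0.4.0 and DESeq2. How reads were counted (tool, strand, annotation) is not given in the sources used here, so reads of overlapping or near-identical genes are uncertain. The authors deposited raw read counts per gene with no scaling, per the file headers. The authors' deposited result table has baseMean as its signal column. Its log2 columns are, per the file headers, the authors' log2 fold change and its standard error. The ratio column is the authors' linear fold change and the score column the authors' test statistic. The p-value columns hold the authors' p and adjusted p.

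Counts were tested with edgeR 4.0.16 (R 4.3.3): filterByExpr by group (minimum count 10), TMM, robust quasi-likelihood fits of the group alone, and Benjamini-Hochberg adjustment over all 13288 genes at 0.05. Both libraries of a mouse share the animal, per the labels. Their deviations from the group means correlated at -0.089, 0.733 and 0.601 for mice 1, 2 and 3, and adding the mouse as a block, an alternative, lowered the common coefficient of variation from 40.7% to 29.64%. Other alternatives were another scaling, no filter, another tool (DESeq2 1.42.0, with missing adjusted p left missing), libraries left out, and per-library spline trends (5 degrees of freedom) on transcript length and GC content entered as offsets. DESeq2 with those offsets and DESeq2 without each library were added after the data were seen. Lengths are those of the GENCODE M21 transcript with the longest coding sequence, for 94.4% of tested genes. The edgeR and DESeq2 fits without offsets or block were run on simulated counts in which some genes were changed. Those counts had less spread between libraries than these data, no mouse effect and no length trend. The simulation therefore cannot decide whether the calls reported here are right.

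The members and lists were chosen with earlier results of these data known, and part of the ubiquitin list is not reported here. Values per library are given for members past the threshold, the catalytic and immunoproteasome subunits, the activators and the highest and lowest member of each class. With 3 libraries per group, a permutation of 1 gene's values cannot give a p under 0.1, so none was used. Promoter windows are from RefSeq (GRCm38.p6), and summaries were made in Python 3.11.15.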

Additional observations from a re-analysis of the deposited data

How the results depend on the processing

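The calls depended on the scaling, the tool, transcript length and single libraries, and the directions of uncalled members on offsets, library totals and single libraries. Over all genes DESeq2 called 1522 higher and 1298 lower in place of 588 and 493. Library totals gave 19 lower. Length and GC offsets gave 0 higher and 0 lower, 99 lower with the block added, and 294 lower with DESeq2. Leaving out a library or mouse gave 0 to 937 higher and 0 to 713 lower with edgeR, and 782 to 1724 higher and 842 to 1718 lower with DESeq2.

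With the replicate block for the mouse, 14 members were called lower and 1 higher: 12 of the same 14, with Psmb2 and Psmb10 in place of Psma2 and Psme2b, and Psme4 again. The block called 721 genes higher and 571 lower. Of the members, library totals called 1 lower, DESeq2 23, length and GC offsets 0, these with the block 2 (Psma3 and Psmd5) and DESeq2 with offsets 4. Upper-quartile scaling called 19 with all 14 among them, size factors in the DESeq2 style 13 and no filter 11 of the 14. For these size factors and for no filter the share of all genes called is not given here, so their counts lack that measure. Members called higher were 0 with size factors, upper-quartile scaling, library totals, and each of the 3 fits with offsets. Leaving out a library or mouse gave 0 to 20 members lower and 0 higher with edgeR, and 18 to 27 lower and 1 to 4 higher with DESeq2. The 14 kept a negative sign under every setting run.

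Signs turned for 17 members under 1 or more settings, none of them called: 13 with the offsets (with or without the block), 14 with DESeq2 and offsets, 8 with library totals and 0 to 8 in each leave-out. Of the members described in full, 4 turned. Psma8 ranged from -0.36 to 0.90 and Psmb11 from -0.58 to 0.44 (0.0064 with library totals) over the leave-outs, at low counts that limit both. Psme1 came to 0.26 with offsets, with or without the block, and with DESeq2. Psmf1 ranged from -0.036 to 0.24 over the leave-outs and was at -0.00014 with DESeq2 and offsets. The causes were not tested.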
